A study of Rattus norvegicus with 8 samples.

Results

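The genes described here mark kidney macrophages or encode the complement starter C1q: C1qa, C1qb, C1qc, Csf1r, Cd68, Cd163, Mrc1, Aif1, Tyrobp and Cd4. They were chosen by symbol, as every probe set annotated to exactly 1 of these symbols, which gave 11 probe sets for 10 genes, out of 29214 probe sets and 17245 genes with such an annotation. Whole kidneys were taken from rats of the HSRA model, which derives from a heterogeneous stock and in which animals can lack a kidney from birth. The HSRA-S group consisted of 4 kidneys from animals with a congenital solitary kidney at 4 weeks of age, and the HSRA-C group, set as the control, of 4 kidneys from 2-kidney animals of the same model and age. Both groups therefore share the HSRA background, no treatment is labelled, and the labels state neither sex nor litter. RNA of each kidney was hybridised to 1 Affymetrix Rat Gene 1.1 ST array, and the comparison asks how these genes differ between a kidney that formed alone and 1 of a pair.

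Resident macrophages lie between the tubules of the kidney, clear debris and dying cells, and depend on signals through the receptor Csf1r. C1q is the recognition part of the first complement component: it binds antibody complexes and dying cells, and with the proteases C1r and C1s it starts the classical pathway. Tissue macrophages are a main source of its chains, which are encoded by C1qa, C1qb and C1qc. Rat monocytes and macrophages carry Cd4 on their surface, as helper T cells do.

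The chains of C1q were higher on average in the solitary kidneys, but not in every one of them, and none passed the test over all genes. All values below are log2 of the deposited intensity unless stated otherwise, and differences are HSRA-S minus HSRA-C on the log2 scale. C1qa (probe set 10880734) was at 5.87, 5.97, 5.51 and 5.0 in HSRA-S replicates 1 to 4, against 5.30, 5.37, 5.06 and 4.91 in HSRA-C replicates 1 to 4. C1qb (10880727) was at 6.51, 6.68, 6.32 and 5.98 in HSRA-S, against 6.21, 6.11, 5.92 and 5.79 in HSRA-C. For both genes HSRA-S replicates 1 to 3 lay above all controls, while HSRA-S replicate 4 lay below HSRA-C replicates 1 and 2. C1qc (10880731) was at 5.37, 5.35, 5.39 and 5.06 in HSRA-S, against 5.01, 4.94, 4.73 and 4.61 in HSRA-C. It was the only member whose groups did not overlap, with HSRA-S replicate 4 just above the highest control.

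**Figure D1:**
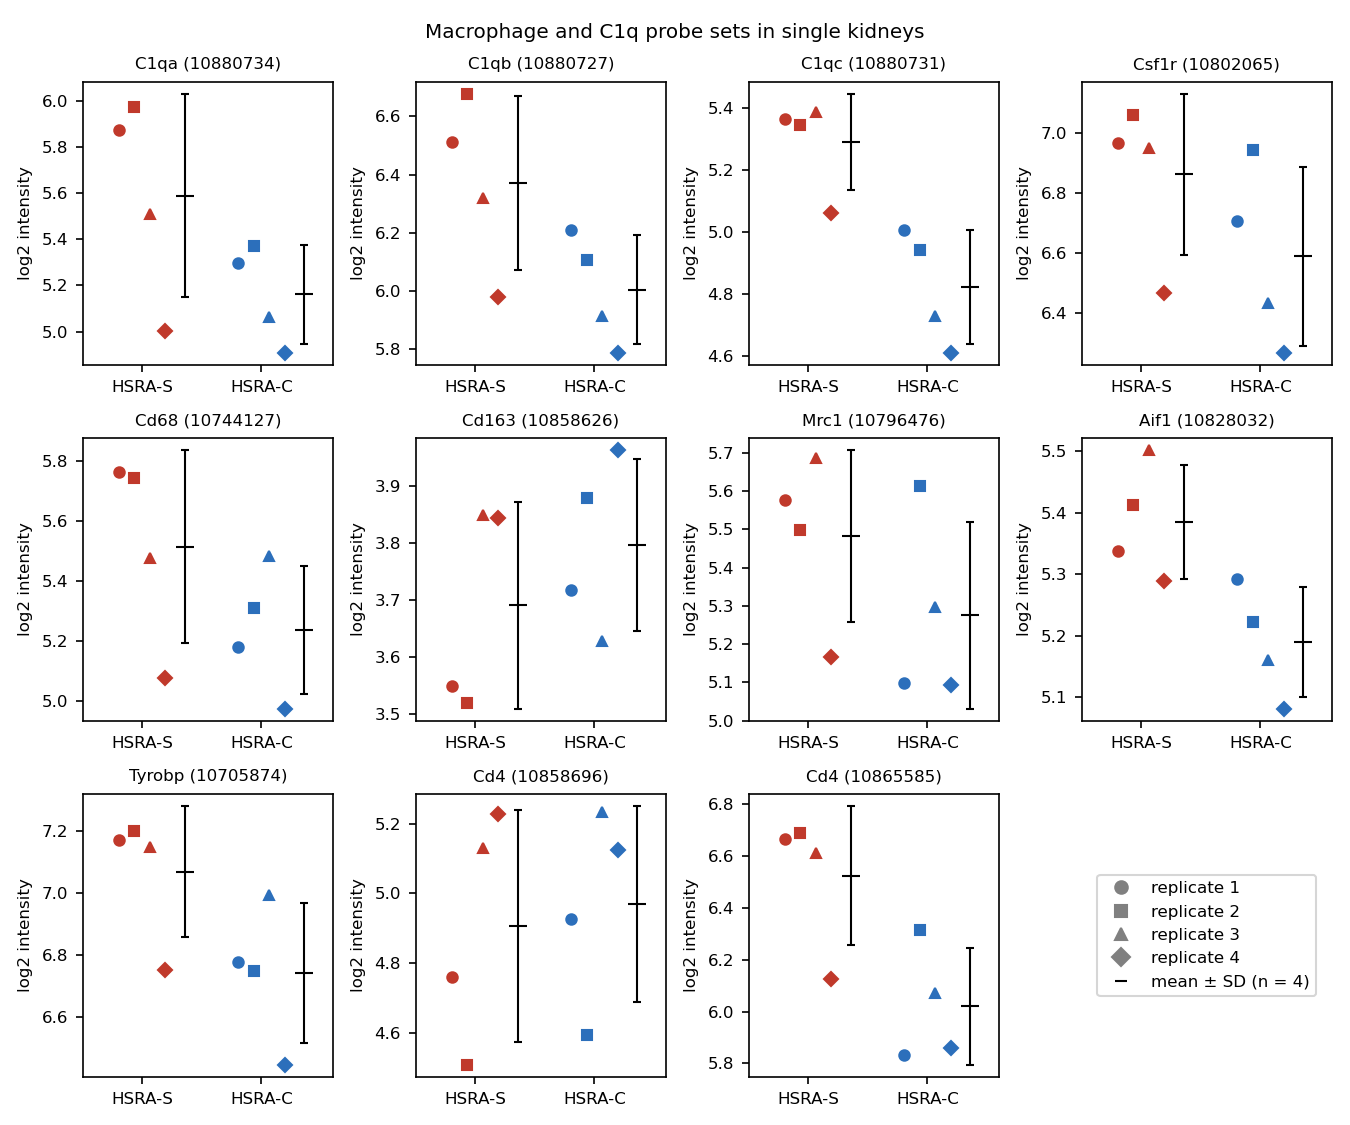
Log2 intensity of the 11 probe sets in each kidney, with HSRA-S in red on the left and HSRA-C in blue on the right of each panel. Symbols stand for replicate numbers and black bars for the mean ± SD of 4 kidneys. HSRA-S replicate 4 (red diamond) is the lowest of its group for 9 of the 11 probe sets, and the groups are apart only for C1qc.

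C1qc averaged 5.29 ± 0.15 in the solitary kidneys and 4.82 ± 0.18 in the control kidneys (mean ± SD over 4 kidneys per group), which is 1.38-fold higher in the solitary kidneys. The 95% interval of the difference of 0.47 ran from 0.23 to 0.70, and the limma adjusted p over the 13796 genes tested was 0.331. C1qa averaged 5.59 ± 0.44 in the solitary kidneys and 5.16 ± 0.21 in the control kidneys, and the interval of its difference of 0.43 ran from -0.0092 to 0.87 (limma adjusted p = 0.421). C1qb differed by 0.37 with an interval from 0.040 to 0.69 (limma adjusted p = 0.383). Averaged over the C1q chains, the difference was 0.42. In whole-kidney RNA, more macrophages and more C1q RNA per macrophage cannot be told apart. The samples are called independent and biological replicates in the labels, so the spread includes that between animals.

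The readings of the C1q chains were also set against each other within a kidney. The difference between C1qa and C1qc had an SD of 0.32 over the solitary kidneys and 0.063 over the control kidneys, and that between C1qa and C1qb an SD of 0.15 over the solitary kidneys and 0.076 over the control kidneys. HSRA-S replicates 1 to 3 had nearly the same C1qc level, whereas C1qa was lower in replicate 3 than in replicates 1 and 2. With 4 kidneys per group these SDs are a description, and they were not tested against each other.

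The genes of the C1q chains lie next to each other on chromosome 5, with 0 other genes between them in the RefSeq annotation of assembly GRCr8. Across the 8 arrays the levels of C1qa and C1qb correlated at r = 0.98, given as a description, and the upstream sequences held in the RefSeq promoter table are shown for these 2 genes because they moved together. Both genes lie on the minus strand and the sequences are given 5′ to 3′, as the 250 bases before the gene start. Capitals mark the letters GAGGAA or their reverse complement TTCCTC, 1 sequence bound by PU.1 (gene Spi1), the factor that sets the macrophage lineage. Other sequences that PU.1 may bind were not searched or marked.
C1qa (GRCr8, chr5:154419934-154420183, minus strand): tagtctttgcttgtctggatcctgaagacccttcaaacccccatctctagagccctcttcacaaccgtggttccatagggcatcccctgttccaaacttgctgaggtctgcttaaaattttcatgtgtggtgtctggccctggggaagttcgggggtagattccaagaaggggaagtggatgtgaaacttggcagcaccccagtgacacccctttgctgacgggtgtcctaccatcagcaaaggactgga
C1qb (GRCr8, chr5:154407828-154408077, minus strand): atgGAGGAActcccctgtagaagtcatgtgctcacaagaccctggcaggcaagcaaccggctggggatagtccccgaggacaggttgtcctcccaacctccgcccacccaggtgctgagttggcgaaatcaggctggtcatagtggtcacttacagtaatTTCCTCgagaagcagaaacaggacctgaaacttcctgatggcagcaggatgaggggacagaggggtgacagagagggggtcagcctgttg

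The window of C1qb held 2 matches, which begin 247 and 90 bases before the gene start, and that of C1qa held 0. Of the 10 members, 6 had an entry in the promoter table, and 4 of these 6 held a match on either strand within 250 bases: C1qb, Csf1r, Cd68 and Mrc1. Cd163 and C1qa held none, and C1qc, Aif1, Tyrobp and Cd4 had no entry. The same letters occur in 23.3% of the 33469 promoters of the table. This was the only motif searched. A match is a description of letters and not of binding. Spi1 itself averaged 5.29 ± 0.29 in the solitary kidneys and 5.21 ± 0.13 in the control kidneys (mean ± SD), a difference of 0.081 (SE 0.13).

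Csf1r, the receptor for the macrophage growth factors CSF1 and IL-34, was at 6.97, 7.06, 6.95 and 6.47 in HSRA-S replicates 1 to 4, against 6.71, 6.94, 6.43 and 6.27 in HSRA-C replicates 1 to 4. HSRA-C replicate 2 lay just below the lowest of HSRA-S replicates 1 to 3, and HSRA-S replicate 4 lay among the controls. Its interval, from -0.091 to 0.64 around a difference of 0.27, includes 0 (limma adjusted p = 0.525). The difference was 0.037 without HSRA-C replicates 3 and 4.

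Tyrobp encodes DAP12, the signalling adaptor of Trem2 and other myeloid receptors. It was at 7.17, 7.20, 7.15 and 6.75 in HSRA-S, against 6.78, 6.75, 6.99 and 6.45 in HSRA-C. Of the solitary kidneys only replicate 4 fell within the range of the controls. The difference was 0.33 with an interval from 0.035 to 0.62 (limma adjusted p = 0.383). Aif1, the calcium-binding protein IBA1 of macrophages, was at 5.34, 5.41, 5.50 and 5.29 in HSRA-S, against 5.29, 5.22, 5.16 and 5.08 in HSRA-C. Here HSRA-S replicate 4 and HSRA-C replicate 1 met, and all other solitary kidneys were above all controls. The Aif1 difference was small and its spread narrow: 0.20 with an interval from 0.038 to 0.35 (limma adjusted p = 0.358).

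The 2 probe sets of Cd4 gave opposite signs. Probe set 10865585 was at 6.67, 6.69, 6.61 and 6.12 in HSRA-S, against 5.83, 6.32, 6.07 and 5.86 in HSRA-C. HSRA-S replicates 1 to 3 were above all controls, and HSRA-S replicate 4 was below HSRA-C replicate 2. With 0.50 this was the widest difference among the 10 genes, 1.42-fold, with an interval from 0.18 to 0.83 (limma adjusted p = 0.331). Probe set 10858696 was at 4.76, 4.51, 5.13 and 5.23 in HSRA-S, against 4.93, 4.59, 5.23 and 5.12 in HSRA-C. Its groups overlapped throughout, and the difference was -0.062 with an interval from -0.47 to 0.35 in the fit over all probe sets (limma adjusted p = 0.938). With the probe sets averaged, Cd4 differed by 0.22. Which of them follows Cd4 RNA was not tested.

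The scavenger and endocytic receptors Cd68 and Mrc1 had intervals that included 0. Cd68, a glycoprotein of macrophage lysosomes, was at 5.76, 5.74, 5.48 and 5.08 in HSRA-S, against 5.18, 5.31, 5.48 and 4.97 in HSRA-C. Mrc1, the mannose receptor CD206, was at 5.58, 5.50, 5.69 and 5.17 in HSRA-S, against 5.10, 5.61, 5.30 and 5.09 in HSRA-C. For both genes 1 control stood among the higher solitary kidneys, HSRA-C replicate 3 for Cd68 and replicate 2 for Mrc1. The differences were 0.28 (interval -0.074 to 0.63) and 0.21 (interval -0.10 to 0.51).

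Cd163, the haemoglobin scavenger receptor of resident macrophages, was the only member with a lower mean in the solitary kidneys. It was at 3.55, 3.52, 3.85 and 3.84 in HSRA-S, against 3.72, 3.88, 3.63 and 3.96 in HSRA-C. The groups overlapped, and the difference of -0.11 had an interval from -0.34 to 0.13 (limma adjusted p = 0.709). The gene was dim: genes with a mean under 3.63 over all arrays were left out as dim, and Cd163 averaged 3.69 in HSRA-S and 3.80 in HSRA-C. All 10 members passed that filter.

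**Figure D2:**
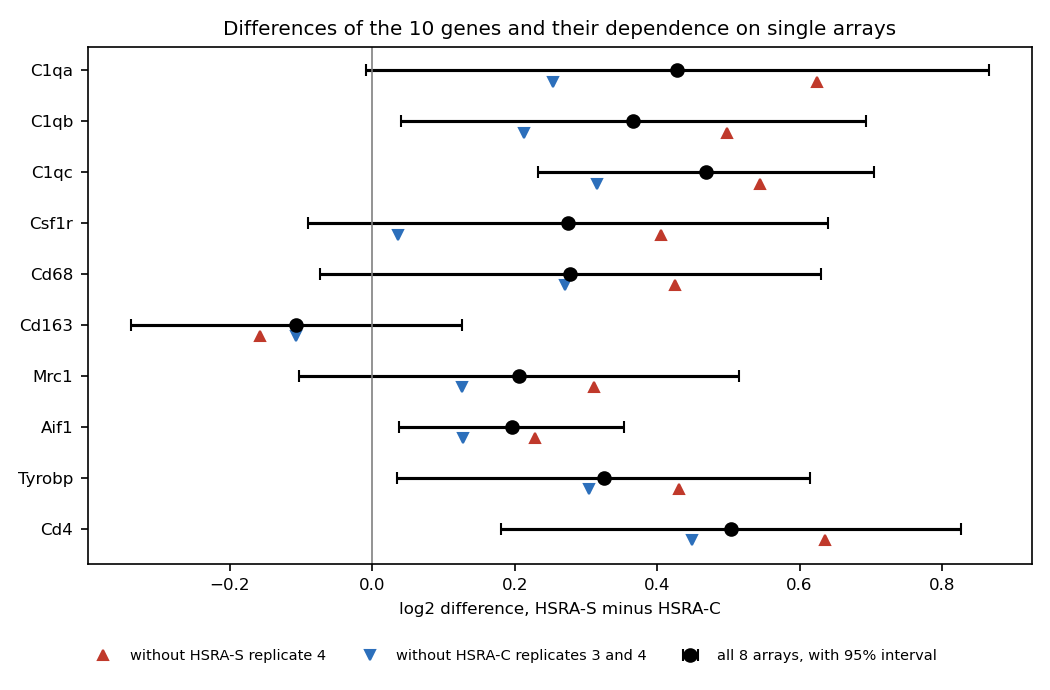
Log2 difference (HSRA-S minus HSRA-C) of each gene with its 95% interval from limma over all 8 arrays (black), and the same difference without HSRA-S replicate 4 (red) and without HSRA-C replicates 3 and 4 (blue). Leaving out the solitary kidney moves C1qa to 0.62, and leaving out the controls moves Csf1r to 0.037.

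With limma, 0 of the 10 members passed an adjusted p under 0.05, as did 0% of all genes tested, and the adjusted p of the members lay between 0.331 and 0.709. At an unadjusted p under 0.05, 5 members were higher in HSRA-S (C1qb, C1qc, Aif1, Tyrobp and Cd4) and 0 were lower, while 7.36% of all genes were higher and 4.69% lower at that p. The group ranges were apart for 1 member, C1qc, on the higher side, where 4.12% of all genes were, and for 0 on the lower side, where 2.17% were. The mean was higher in HSRA-S for 9 of 10 members, against 55.5% of all genes, and the median difference was 0.30 for the members and 0.015 for all genes. The members varied together across the kidneys, so these counts are not 10 separate observations. The count of 5 depended on single kidneys. It was 9 without HSRA-S replicate 4, where 8.29% of all genes were higher at that p, 3 without HSRA-S replicate 1, 2 or 3, where 4.91%, 6.15% and 7.22% of all genes were, and 2 without HSRA-C replicate 4, where 4.5% of all genes were. Without HSRA-C replicates 3 and 4 it was 3 (C1qc, Tyrobp and Cd4), against 2.68% of all genes.

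The members were also read kidney by kidney. HSRA-S replicate 3 was above the mean of the gene for 10 of 10 members, and replicates 1 and 2 for 9 of 10, with Cd163 as the exception. HSRA-S replicate 4 was above it for 3 of 10. In the controls the number was 2, 4, 2 and 1 in replicates 1 to 4. HSRA-S replicate 2 held the highest value of 5 members, and HSRA-C replicate 4 the lowest of 8.

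**Figure D3:**
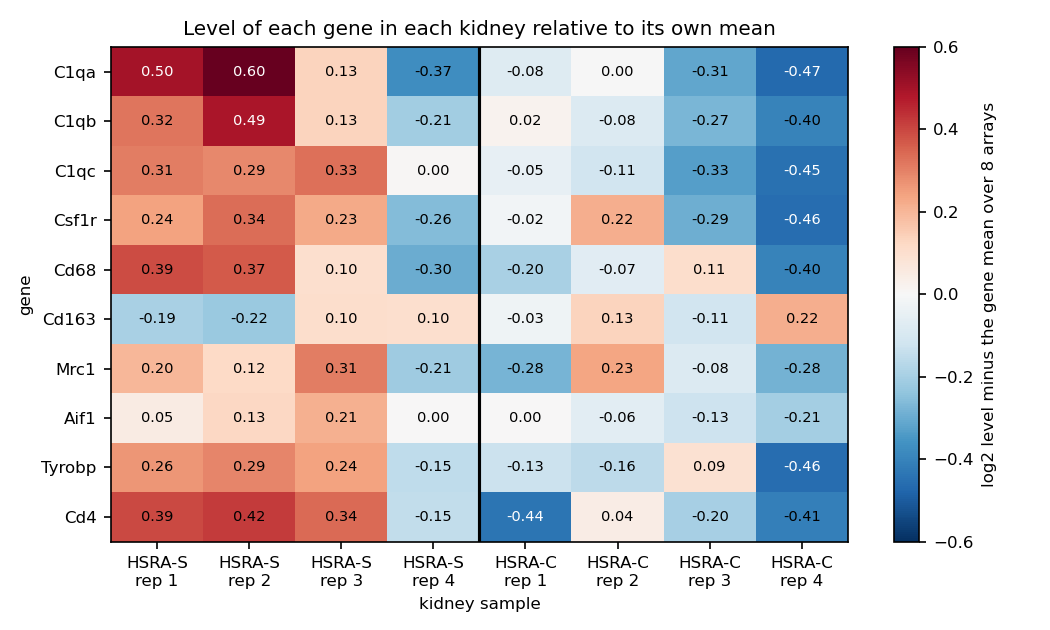
Log2 level of each gene in each kidney minus the mean of that gene over the 8 arrays, with HSRA-S on the left of the black line and HSRA-C on the right. Red is above and blue below the mean. HSRA-S replicates 1 to 3 are red in every row but Cd163, where replicates 1 and 2 are blue, and HSRA-C replicate 4 is blue in every row but Cd163.

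The kidneys also differed in markers of the medulla. Slc14a2, the urea transporter of the inner medulla, was at 6.85, 7.04, 7.22 and 4.44 in HSRA-S replicates 1 to 4, against 5.99, 6.44, 8.86 and 9.0 in HSRA-C replicates 1 to 4. Aqp4, a water channel of the collecting duct, was at 6.25, 6.55, 6.78 and 5.22 in HSRA-S, against 5.45, 6.79, 7.31 and 7.57 in HSRA-C. HSRA-S replicate 4 was the lowest for both genes and HSRA-C replicates 3 and 4 were the highest, and these 3 kidneys also had the lowest mean of the C1q chains, at 5.35 in the solitary kidney and 5.24 and 5.10 in the controls. The other kidneys had C1q means of 5.92, 6.0 and 5.74 in HSRA-S and 5.50 and 5.47 in HSRA-C. The mean C1q difference was 0.56 without HSRA-S replicate 4 and 0.26 without HSRA-C replicates 3 and 4. With the proximal tubule minus the medulla marker mean as a covariate it was 0.44. Then 4 members (C1qc, Cd68, Tyrobp and Cd4) were higher at an unadjusted p under 0.05, against 5.61% of all genes. That covariate was highest in HSRA-S replicate 4 (3.30) and lowest in HSRA-C replicates 3 and 4 (1.46 and 1.27). A linear term cannot take up low C1q at both of its ends, so tissue composition was not tested by it. Across the lists, 12 of 13 medulla markers on the array passed the filter, 11 of them with a lower mean in HSRA-S (median difference -0.26), with a summed intensity of 2544 to 4487 in HSRA-S and 3170 to 7134 in HSRA-C. For proximal tubule markers 18 of 18 passed the filter, 15 of them with a higher mean in HSRA-S (median difference 0.17), with sums of 25629 to 31096 in HSRA-S and 23777 to 26930 in HSRA-C. At an unadjusted p under 0.05, 5 proximal tubule markers were higher and 1 lower (Aqp1), and the same 5, the transporters Slc7a8, Slc2a2, Slc34a3, Slc6a19 and Slc7a7, had group ranges apart. Of the medulla markers 0 were higher and 2 lower at that p (Aqp2 and Slc14a1). Among all genes, 55.5% had a higher mean in HSRA-S, and 7.36% were higher and 4.69% lower at that p. Group ranges were apart for 4.12% of all genes on the higher side and for 2.17% on the lower side.

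Other macrophage and monocyte markers lay mostly, but not all, on the same side as the members. Of 41 genes of that list on the array, 39 passed the filter, 31 had a higher mean in HSRA-S and 8 a lower one, against 55.5% of all genes with a higher mean, and the median difference was 0.15. At an unadjusted p under 0.05, 12 were higher and 3 lower (Cd14, Cd48 and Slco2b1), against 7.36% of all genes higher and 4.69% lower, and 0 passed the adjusted test in limma. The genes of smallest p were Mpeg1, a pore-forming protein of phagocytes (0.56, SE 0.13), Fcgr1a, the high-affinity receptor for immunoglobulin G (0.42, SE 0.10), Lgmn, a lysosomal protease that tubule cells also make (0.54, SE 0.13), and Clec7a, the beta-glucan receptor dectin-1 (0.60, SE 0.17). Mpeg1 was at 5.90, 5.91, 5.72 and 5.48 in HSRA-S, against 5.22, 5.37, 5.31 and 4.88 in HSRA-C. Lgmn was at 10.01, 9.90, 9.87 and 10.20 in HSRA-S, against 9.65, 9.75, 9.20 and 9.23 in HSRA-C. Unlike Mpeg1, it was highest in HSRA-S replicate 4, the kidney with the highest proximal tubule minus medulla value. For Mpeg1, Fcgr1a, Lgmn and Ctsb every solitary kidney, replicate 4 included, was above every control. For Cd14 (-0.21, SE 0.063) and Lst1 (-0.098, SE 0.053) every solitary kidney was below every control. These 4 and 2 of the 39 genes stood beside 4.12% of all genes apart on the higher side and 2.17% on the lower. The summed intensity of the list was 7041 to 7784 in HSRA-S and 6058 to 6971 in HSRA-C. Without HSRA-C replicates 3 and 4, the count of 12 was 3, while the share of all genes at that p was 2.68%, and the median difference was 0.14.

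Of the ligands and lineage factors of Csf1r, 9 of 11 tested genes had a higher mean in HSRA-S, against 55.5% of all genes, with a median difference of 0.13. At an unadjusted p under 0.05, 1 was higher, against 7.36% of all genes, and 0 were lower. This was Irf5, an interferon regulatory factor of macrophages (0.43, SE 0.13). Irf8, which directs monocyte formation, differed by 0.21 (SE 0.10), Nr1h3, the oxysterol receptor LXR alpha, by 0.22 (SE 0.11), and the ligand Csf1 by 0.16 (SE 0.090).

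Of the partners of Tyrobp and the signalling proteins after it, 6 of 9 tested genes had a higher mean, with a median of 0.090. The share over all genes was 55.5%. Fcer1g, the adaptor of Fc receptors, followed the pattern of Tyrobp: it was at 7.55, 7.69, 7.72 and 6.92 in HSRA-S, against 6.99, 6.94, 7.15 and 6.95 in HSRA-C, a difference of 0.46 (SE 0.16). HSRA-S replicate 4 was the lowest of all 8 kidneys for this gene. The adaptor Lcp2 differed by 0.31 (SE 0.099), Vav1 by 0.17 (SE 0.10) and the phospholipase Plcg2 by 0.090 (SE 0.078). Fcer1g and Lcp2 were higher at an unadjusted p under 0.05 and 0 genes were lower, against 7.36% of all genes higher and 4.69% lower.

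The other complement genes were divided. Of 13 tested, 7 had a higher and 6 a lower mean, with a median difference of 0.0023. Over all genes 55.5% had a higher mean, and 7.36% were higher and 4.69% lower at an unadjusted p under 0.05. C1r and C1s, the proteases that join C1q in the first component, differed by -0.20 (SE 0.20) and 0.0023 (SE 0.21). At an unadjusted p under 0.05, 4 were higher and 0 lower: Masp1, a protease of the lectin pathway (0.26, SE 0.066), the central component C3 (0.54, SE 0.17), and C7 (0.52, SE 0.17) and C6 (0.25, SE 0.090) of the membrane attack complex. C3 was at 5.54, 5.38, 5.13 and 4.83 in HSRA-S, against 4.46, 4.89, 4.96 and 4.40 in HSRA-C, with HSRA-S replicate 4 among the controls. Of the receptors for complement and C1q, 3 of 6 tested genes had a higher and 3 a lower mean, and 0 reached an unadjusted p under 0.05 in either direction. The smallest p there was that of the integrin Itgax (0.25, SE 0.12), followed by Lrp1 (-0.11, SE 0.084), C3ar1 (0.11, SE 0.082) and Calr (-0.070, SE 0.067).

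Products of activated macrophages did not lie to 1 side. Of 10 tested, 5 had a higher and 5 a lower mean in HSRA-S, with a median difference of -0.025, and 0 reached an unadjusted p under 0.05. Ccl2, the chemokine that draws monocytes, was at 7.45, 7.32, 6.79 and 7.03 in HSRA-S, against 7.11, 7.15, 8.88 and 8.71 in HSRA-C. The groups differed by -0.82 with an SE of 0.39, and the high values were those of HSRA-C replicates 3 and 4, the kidneys with high medulla markers. Ccl3 differed by 0.13 (SE 0.069), Hmox1, the haem-degrading enzyme, by -0.12 (SE 0.15) and Ccl4 by -0.052 (SE 0.074).

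**Figure D4:**
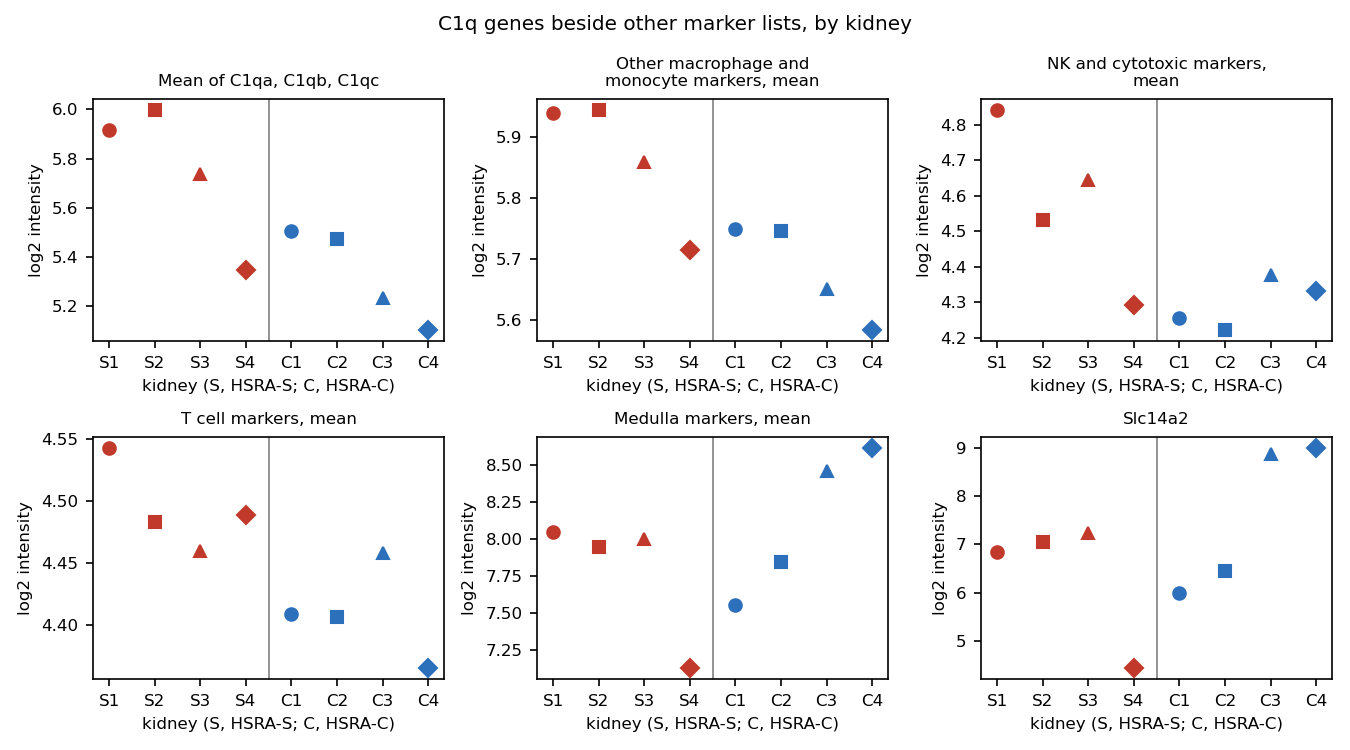
Mean log2 intensity of the C1q chains and of 4 marker lists, and the log2 intensity of Slc14a2, in each kidney (S1 to S4, HSRA-S in red; C1 to C4, HSRA-C in blue). C1q and the other macrophage markers are both highest in S1 and S2 and lowest in C4, and Slc14a2 is lowest in S4 and highest in C3 and C4.

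Because Cd4 and Aif1 are not restricted to macrophages, markers of other leukocytes were read in the same kidneys. Of 21 T cell markers on the array, 14 passed the filter, while Cd3d, Cd3g and Cd2 did not and Cd3e was at 3.69 in HSRA-S and 3.65 in HSRA-C. The means of 12 of the 14 were higher in HSRA-S, with a median difference of 0.059, and the summed intensity was 330 to 349 in HSRA-S and 315 to 336 in HSRA-C. Cd28 (0.47, SE 0.14) and Cd247 (0.26, SE 0.10) were higher at an unadjusted p under 0.05 and Bcl11b (-0.29, SE 0.12) was lower, whereas Cd5 differed by 0.14 (SE 0.069). Markers of NK and cytotoxic cells had a higher mean in 6 of 6 tested genes, with a median of 0.23 and sums of 133 to 193 in HSRA-S and 123 to 141 in HSRA-C. Nkg7, a granule protein, was at 5.73, 4.94, 5.61 and 4.53 in HSRA-S, against 4.68, 4.55, 4.68 and 4.45 in HSRA-C. HSRA-S replicates 1 to 3 were above all controls for this gene too, and replicate 4 was not. The receptors Klrk1 (0.52, SE 0.20) and Ncr1 (0.23, SE 0.094) were, like Nkg7, higher at an unadjusted p under 0.05, and Klrd1 differed by 0.23 (SE 0.15). Beside both lists, 55.5% of all genes had a higher mean, and 7.36% were higher and 4.69% lower at that p. The part of T and NK cells in the Cd4 and Tyrobp values was not tested.

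Markers of B and plasma cells (6 tested, median 0.013, sums of 162 to 183 in HSRA-S and 165 to 170 in HSRA-C) and of neutrophils (8 tested, median -0.0095, sums of 158 to 224 in HSRA-S and 182 to 247 in HSRA-C) were spread around 0. The 9 dendritic cell markers had a median of 0.071 with sums of 235 to 243 in HSRA-S and 221 to 236 in HSRA-C, and the 9 erythroid and platelet markers a median of 0.14 with sums of 1569 to 2588 in HSRA-S and 1376 to 2859 in HSRA-C. In the B cell and dendritic cell lists 0 genes reached an unadjusted p under 0.05. At that p 1 gene of the neutrophil list was lower in HSRA-S, the protease Prtn3 (-0.17, SE 0.069), and 1 of the erythroid list, the anion exchanger Slc4a1 (-0.29, SE 0.12), which intercalated cells of the kidney also make. The share of all genes lower at that p was 4.69%. In every list described here 0 genes passed the adjusted test in limma. Of 8 mast cell and basophil markers on the array, 0 passed the filter.

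Some genes outside the members tracked the mean of the C1q chains closely from kidney to kidney. Unnamed gene models (LOC, RGD and Mgc symbols) were left out of both rankings below. As measured over the 8 arrays, the highest Pearson correlations were those of Laptm5, a lysosomal protein of blood cells (r = 0.98, Spearman's rho = 1), Ror2 (r = 0.98, rho = 0.90) and Ptprc, the leukocyte antigen CD45 (r = 0.97, rho = 0.95). The 10 highest also held Slc25a45, Taf1, Cep76, Pld4, Lilra5, Dhdds and Nckap1l. After the group means were subtracted, so that only the spread within groups counts, the highest were Adamtsl4 (r = 0.99), Taf1 (r = 0.98), Psmc5 (r = 0.98) and Ptprc (r = 0.98), followed by Gpatch11, Dhdds, Prodh, Lbp, Pld4 and Diaph3. These are descriptions over 8 arrays that were normalised together. Of 13786 genes, unnamed models included, 0.66% reached an r of 0.9 after the group means were subtracted. Among the members, r with the C1q mean after that subtraction was 0.92 for Csf1r, 0.78 for Cd68, 0.73 for Cd4, 0.70 for Tyrobp, 0.64 for Aif1, 0.58 for Mrc1 and -0.62 for Cd163. Laptm5 differed by 0.42 (SE 0.15) and Ptprc by 0.31 (SE 0.15) between the groups, and neither passed (limma adjusted p = 0.358 and 0.439).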

How the data were processed

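The authors deposited 1 intensity per probe set and array, made with RMA per the submitters' processing notes (the program is not given in the sources used here). This method sets the distributions of the arrays equal and compresses low values, so differences of dim genes such as Cd163 can be too small. The deposited intensities are linear, from 2.12 to 9259 with array medians of 30.8 to 32.3, and log2 was taken before any test. The arrays correlated at 0.987 to 0.995. Their number, 4 per group, limits the precision.

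Of 29214 probe sets, 18644 had exactly 1 symbol in the platform annotation, 962 several and 9608 none. The members matched RefSeq (GRCr8) by gene ID in 10 of 10 cases. For each gene the probe set with the highest mean was used, and the dimmest 20% of genes were left out, which left 13796. HSRA-S was compared with HSRA-C with limma 3.58.1 in R 4.3.3 (lmFit, eBayes without trend, group only), with Benjamini-Hochberg adjustment over all genes at 0.05. SE and 95% intervals are those of the fit. Lists (15, with 250 entries) are given by counts, medians, summed intensities and mean log2 levels only.

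The members and lists were chosen with earlier results of these data known. All members are named, with up to 4 genes of smallest p from each list. The 10 genes most correlated with the C1q mean in each ranking are also named, with unnamed gene models skipped. Slc14a2 and Aqp4 were also to be named, as medulla markers in every array. Slc7a7, Aqp1, Spi1, C1r, C1s, Cd14, Cd48, Slco2b1, Ctsb, Lst1 and the dim T cell genes were named after their values were seen. On simulated data with the spread of these 13796 genes and 200 changed genes, 81.9% of genes changed 1.5-fold were called and 5.02% of calls were unchanged genes. That share is not one for the members, whose median SE of 0.14 was wider than the 0.082 of all genes. The 8 value columns were all used, and no 2 arrays were identical (0 pairs).
Alternatives were other filters on dim genes, all probe sets, the mean over probe sets, an intensity trend with and without robust estimation, array weights, equal array medians, the replicate number as a block, a tubule-to-medulla covariate, and leaving out single kidneys or HSRA-C replicates 3 and 4.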

Additional observations from a re-analysis of the deposited data

Results flagged for a closer look

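HSRA-S replicate 4 stood apart from the other solitary kidneys in 6 of the 27 groups of 4 solitary-kidney values examined, and 0 of the 27 groups of control values had such a kidney. By chance about 1 in 20 groups would, and the groups are not independent of each other. In that kidney C1qc was at 5.06 on the log2 scale, against 5.35 to 5.39 in HSRA-S replicates 1 to 3. Tyrobp was at 6.75, against 7.15 to 7.20. Cd4 (probe set 10865585) was at 6.12, against 6.61 to 6.69. The mean of the 10 members was 5.48, against 5.84 to 5.91, and that of the other complement genes 6.0, against 6.21 to 6.25. The mean of the medulla markers was 7.13, against 7.95 to 8.05. The part of tissue composition in the low macrophage values of this kidney was not tested.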

How the results depend on the processing

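No member passed the adjusted threshold in limma in any of 19 alternatives (0 in each), and no tested member changed sign in any of them. The filters, the fit over all probe sets, the intensity trends and the replicate block cannot change a difference, so the sign was fixed there. In the fit over all probe sets only the brighter probe set of Cd4 was followed, and not 10858696 (-0.062). The median difference of the members ran from 0.21 to 0.43 when 1 kidney was left out in turn, and the mean of the C1q chains from 0.34 to 0.56. The number of members higher at an unadjusted p under 0.05, 5 over all arrays, was 2 to 9 when 1 kidney was left out. It was 3 without the dimmest 50% of genes, where only 4 members were tested and 9.49% of all genes were higher at that p, and 3 without HSRA-C replicates 3 and 4 together, where 2.68% were. The other macrophage and monocyte markers numbered 12 at that p over all arrays, 8 to 17 when 1 kidney was left out, 6 without the dimmest 50% and 3 without HSRA-C replicates 3 and 4 together. All the alternatives for these other markers were added after seeing the data. The cause of the changes in count was not tested. Fewer genes were fitted without the dimmest 50%, and fewer arrays when kidneys were left out. With the replicate number as a block, 8 members were higher at an unadjusted p under 0.05, against 7.03% of all genes, and 0 passed adjustment. The labels do not say that a number marks a shared litter or day. Over all genes tested, the deviations of same-numbered samples correlated at -0.068, 0.070, 0.13 and -0.11. By that measure 2 of 8 samples correlated best with their own number, so the block was not used. It is not a measure for the members alone. With the block the SE was 0.098 for C1qa and 0.082 for C1qb, against 0.20 and 0.15 without it. For Aif1 it was 0.074, against 0.071. The mean of the C1q chains could not be had without the dimmest 50%. That filter removed C1qa and C1qc, which lie in the dimmer part of the genes, and kept C1qb.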
